A study of Mus musculus with 12 samples.

Results

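Cortex of C57BL/6 mice that carry 1 functional copy of Mir137 (Het, labelled miR-137/+) was compared with cortex of wild-type mice (WT, labelled wildtype), all other labelled conditions being the same. The comparison uses 8 of the 12 RNA sequencing libraries of the series, 4 per genotype, and all 23951 gene rows of the authors' table for this pair of genotypes; the other 4 libraries are from animals that lack both copies (KO). The labels give no age, sex or allele design and name no cell type to which the loss is limited. The stated aim is the role of miR-137 in brain development, and the series title links partial loss of Mir137 to increased Pde10a.

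Each gene has 1 RPKM value (reads per kilobase of transcript, scaled to the number of mapped reads) per genotype, because the authors' table pools the 4 libraries. No value per library, SD or depth can therefore be given, and whether the groups overlap cannot be read. The titles number the libraries in pairs, the protocol mentions duplicates, and no label assigns a library to an animal of its own, so the spread behind the authors' p-values may be that of technical repeats. The words rose and fell are used for genes whose adjusted p, taken from the authors' deposited table, is below 0.05. That table's smallest adjusted p is 0.00135, shared by 525 genes at an unadjusted p of 5e-05. Adjusted p-values are printed for genes that missed the threshold and for part of those that passed with a larger value. A gene counts as measured at 1 RPKM or more in either genotype, and log2 folds are Het over WT of RPKM + 1, a scale on which low genes show smaller changes than their RPKM ratio.

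A microRNA guides an Argonaute protein to messenger RNAs whose 3′ untranslated region (UTR) pairs with bases 2 to 8 of the microRNA, the seed, and such messages are translated less and decay faster. miR-137 is enriched in neurons and is studied for its effects on neural progenitors, dendrites and synapses, and its gene lies in a region associated with schizophrenia. Seed matches are the letters by which such messages are found, so they are shown here with the mature strands. Both strands are from RefSeq on GRCm38.p6, plus strand, with the seed in capitals.
miR-137-3p at chr3:118433901-118433923: uUAUUGCUuaagaauacgcguag
miR-137-5p at chr3:118433865-118433887: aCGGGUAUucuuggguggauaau
A match to the 3p seed was searched for in the longest 3′ UTR of each gene (GENCODE M21 on GRCm38), on the transcript's own strand. The 4 site classes are AGCAATAA (8mer), AGCAATA (7mer-m8), GCAATAA (7mer-A1) and GCAATA (6mer), and a gene is put in the first class it meets in that order.

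The windows that follow show these letters, in capitals, in transcripts that changed in Het and are named in the results. The first group holds transcripts that were higher.
Pde10a, bases 220 to 226 of the 3′ UTR: ttgggcttccgtAGCAATAcaccaggt
Pde10a, bases 6478 to 6484: aagtgcgcaagtGCAATAAtttaaaga
Pde1b, bases 1568 to 1574: tccaagtttctaAGCAATAcattttgg
Dcx, bases 3300 to 3306: agaaatccacacAGCAATAtaatctgg
Akt2, bases 1284 to 1291: ttgtacggtacaAGCAATAAagacactc
The second group holds transcripts that were lower although they carry the same letters.
Grin2a, bases 406 to 412: taatacagaataAGCAATAtggtatgc
Pde1a, bases 1325 to 1331: tcctcaaggctaAGCAATAtttcagag
Synj1, bases 2354 to 2361: tcactcgctgttAGCAATAActcttgtg
Ppm1e, bases 2396 to 2403: cttgctaatgtaAGCAATAAgtaaccct
An identical 7-letter match thus stands in the phosphodiesterase transcript Pde1b, which went from 31.3 to 83.7 RPKM, and in its relative Pde1a, which went from 65.2 to 39.1. Synj1, the lipid phosphatase of synaptic vesicle recycling, fell from 64.0 to 47.1 RPKM (adjusted p 0.00928 from the authors' deposited table). The protein phosphatase gene Ppm1e fell from 117 to 79.8 RPKM. A match is a description of these letters, not evidence of binding.

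Across all genes the presence of a seed match went with little difference in median log2 fold. Of 14159 genes tested, 559 were higher in Het, 3.95% of those tested, and 716 were lower, 5.06%. Among the 600 measured genes with an 8mer, 30 rose and 32 fell, with a median log2 fold of 0.01. Among the 841 with a 7mer-m8, 42 rose and 47 fell, with a median of -0.01. The 695 genes with a 7mer-A1 had 28 rises, 32 falls and a median of -0.02. The 959 with a 6mer only had 30 rises and 73 falls, and their median of -0.03 was the lowest of the classes. The 9806 genes with no match had 396 rises, 497 falls and a median of 0.02. UTR length differed between these classes, with a median of 2735 nt for 8mer genes and 1120 nt for genes with no match, so genes were also split into 4 equal groups by UTR length. In the group with the shortest UTRs the median log2 fold was 0.08 with a site of 7 or 8 letters and 0.07 with no match of 6 or more letters, genes with a 6mer only being left out. In the second it was 0.05 against 0.02, in the third 0.00 against -0.00, and in the group with the longest -0.03 against -0.04. With such a site the shares called higher were 5%, 7.07%, 3.71% and 4.49%, from the shortest group to the longest. With no match they were 4.54%, 4.27%, 3.83% and 3.04%. The shares called lower were 2.14%, 4.82%, 5.23% and 5.68% with such a site. With no match these were 4.41%, 4.27%, 4.85% and 7.86%. Genes with 2 such sites numbered 310, of which 26 rose (8.39%) and 15 fell; the 67 with 3 or more held 4 rises and 6 falls. These counts and shares are given with no test, and 3′ UTRs were found for 12901 of 13704 measured genes with a name of their own (94.1%).

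Published targets of miR-137, a list assembled from literature knowledge, moved in both directions. Of 33 tested, 3 rose and 3 fell, 9.09% each way, against 3.95% and 5.06% over all tested genes. With so few calls these shares are descriptions only. The median log2 fold of the targets was -0.07 against 0.01 over all measured genes. Pde10a, the phosphodiesterase that degrades cyclic AMP and cyclic GMP, rose 2.78-fold, from 12.7 to 35.2 RPKM. Akt2, a kinase of insulin signalling, rose from 35.6 to 48.5 RPKM, a 1.36-fold difference. Ezh2, the polycomb histone methyltransferase, rose 1.70-fold and had no match of 6 or more letters in its longest UTR. The 3 that fell were Grin2a, an NMDA receptor subunit, Ptgs2, the inducible prostaglandin synthase, and Csmd1, a complement-control membrane protein. Ptgs2 fell 2.12-fold, from 6.75 to 3.18 RPKM. The more abundant targets stayed uncalled: the small GTPase Cdc42 stood at 313 in WT and 334 RPKM in Het, the calcium sensor of release Syt1 at 359 and 297, and the vesicle fusion ATPase Nsf at 327 and 270 (adjusted p 0.786, 0.323 and 0.265 from the authors' deposited table). In their longest UTRs 23 of the listed targets held a match of 7 or 8 letters, 2 a 6mer only and 7 none. Pde10a is also a gene of striatal projection neurons, whose other genes rose with it as described next; the part of either in the value of Pde10a cannot be told apart in these pooled values. Genes of microRNA processing and silencing changed little: among 20 tested, Ago2, the slicing Argonaute, fell from 7.87 to 5.46 RPKM, and no other member was called at an adjusted threshold, while 3 had an unadjusted p below 0.05 from the authors' deposited table.

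The Mir137 row itself was listed at 0 RPKM in both genotypes. Its hairpin has 73 nt, and of 1071 rows named for microRNA precursors 169 had a value above 0. The row cannot check the genotype, and why it was listed at 0 was not tested. Neighbouring genes on the chromosome were read next. Snx7, a sorting nexin and the nearest tested gene before Mir137, rose from 11.9 to 15.9 RPKM (adjusted p 0.0409 from the authors' deposited table). Dpyd, the first gene after it, stood at 3.605 in WT and 2.92 RPKM in Het (adjusted p 0.318 from the authors' deposited table). The splicing repressor Ptbp2, the second gene after it, stood at 48.5 and 46 RPKM (adjusted p 0.816 from the authors' deposited table). The other 7 of the 10 nearest genes, 5 on each side, were not called by the authors' test. Of these 3 had an unadjusted p below 0.05 from the authors' deposited table, with Rwdd3 (9.84 and 12.9 RPKM) closest at an adjusted p of 0.143. On chromosome 3 as a whole 35 genes rose and 32 fell of 672 tested, and the share called per chromosome ran from 7.13% on chromosome 18 to 10.7% on chromosome 1 among the autosomes.

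**Figure D1:**
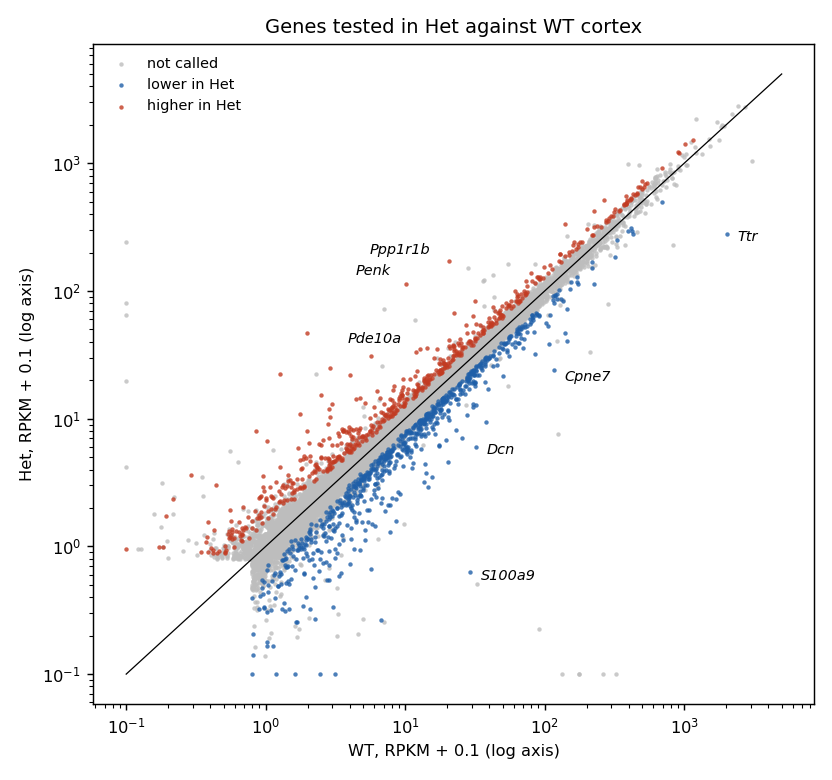
Each point is a tested gene, placed by its RPKM + 0.1 in WT (horizontal, log axis) and in Het (vertical, log axis); colours mark genes called higher or lower at an adjusted p below 0.05 from the authors' deposited table, and the line marks equal levels. Most genes lie along the line, and the striatal genes Penk and Ppp1r1b stand above it while Ttr, Dcn, Cpne7 and S100a9 stand below.

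Most differences were small. The log2 folds of measured genes had a median of 0.01, with the 5th percentile at -0.44 and the 95th at 0.41. The genes that rose did so by a median of 1.51-fold and those that fell by 1.59-fold, and 135 of the former and 185 of the latter differed by at least 2-fold. The size needed for a call depended on level: at 1 to 2 RPKM the median called fold was 2.11 and the smallest 1.42, and at 100 RPKM or more these were 1.34 and 1.24. At an unadjusted p below 0.05 the authors' deposited table held 2760 genes.

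Genes that define striatal projection neurons rose, and the 6 largest rises on the log2 scale among called genes of at least 1 RPKM were all members of their list. These inhibitory neurons receive cortical and dopamine input, signal through cyclic AMP and are found below the cortex. Of 44 tested, 33 rose and 1 fell, and the median log2 fold was 1.10. The summed level of the list went from 1752 to 2484 RPKM. All gene lists of this report were chosen with earlier results of these data known. Their shares are therefore descriptions and not tests. Penk, the enkephalin precursor, rose from 10.1 to 113 RPKM. The list was low in WT and not at 0: Drd1a, the D1 dopamine receptor, was listed at 0.755 RPKM there, Adora2a at 1.17 and Ppp1r1b at 20.6. Members of both output pathways rose, with Drd1a, prodynorphin (Pdyn, 4.66 to 14.3 RPKM) and tachykinin (Tac1, 11.9 to 33.1 RPKM) of the direct pathway, and Drd2, Adora2a and Penk of the indirect pathway. The member that fell was Itpka, an inositol kinase of spines, from 86.3 to 64.9 RPKM (adjusted p 0.00764 from the authors' deposited table). Kcnip2, Phactr1 and Hpca, which cortical neurons also express, stood at 89.98, 66.2 and 937 RPKM in WT and 99.1, 67.6 and 890 in Het (adjusted p 0.578, 0.954 and 0.887 from the authors' deposited table). In bulk tissue more cells of a type and more RNA per cell cannot be told apart, and the same holds for every cell type named below; the part of tissue composition was not tested.

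The transcription factors of the ventral forebrain followed, 16 of 33 higher and 1 lower with a median log2 fold of 0.43. Rxrg and Rarb, retinoid receptors of striatum, rose from 2.41 to 15.1 and from 2.76 to 11.9 RPKM. Isl1, which specifies direct-pathway neurons, was near the floor in WT at 0.0932 RPKM and reached 1.63 in Het (adjusted p 0.00343 from the authors' deposited table). Meis2 and Pbx3, partner homeobox factors of striatal and olfactory precursors, rose to 17.8 and 6.24 RPKM from 8.15 and 2.32. The factor that fell was Etv1, from 20.2 to 10.2 RPKM, which marks layer 5 cortical neurons. Lhx6, a factor of cortical interneurons, stood at 8.92 and 8.45 RPKM (adjusted p 0.868 from the authors' deposited table).

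Signalling families showed which of their members had risen. Among G-protein subunits and their RGS regulators 7 of 44 rose and 1 fell, led by Rgs9, Rgs2, Gng7 and Gnal. Gnal encodes the olfactory-type stimulatory subunit that couples striatal receptors to adenylyl cyclase, and it rose from 42.6 to 74.4 RPKM; its general relative Gnas stood at 1028 and 976 RPKM (adjusted p 0.889 from the authors' deposited table). Rgs14, a regulator of hippocampal area CA2, was the member that fell (30.3 to 23 RPKM, adjusted p 0.0194 from the authors' deposited table). Of 54 genes of cyclic nucleotide turnover and protein kinases A and G, 8 rose and 7 fell with a median of -0.03. Adcy5 rose from 23.7 to 39.3 RPKM and Adcy9 fell from 16.3 to 11.1, and both are adenylyl cyclases. The nitric oxide receptor subunit Gucy1a3 rose from 11.6 to 21.4 RPKM, and the natriuretic peptide receptor Npr3 fell from 4.57 to 1.74. A list of 55 phosphatase 1 and 2 subunits and inhibitors, which also holds Ppp3 genes, had 4 rises and 1 fall. Ppp1r1b, at 172 RPKM in Het, led the rises. The abundant scaffold member Ppp2r1a stood at 402 RPKM in WT and 407 in Het, and the catalytic member Ppp3ca at 450 and 445 (adjusted p 0.977 and 0.979 from the authors' deposited table).

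Neuropeptide genes changed in both directions. Of 36 tested, 6 rose and 5 fell, with a median of -0.01. Neuropeptide Y (Npy), made by cortical and striatal interneurons, rose from 88.7 to 130 RPKM. Somatostatin (Sst), often found in the same interneurons, fell from 330 to 250 RPKM (adjusted p 0.00841 from the authors' deposited table). Gastrin-releasing peptide (Grp) fell from 37.0 to 19.4 RPKM and neurotensin (Nts) from 13 to 7.51. Cholecystokinin (Cck), at 386 and 381 RPKM, was not called (adjusted p 0.968 from the authors' deposited table).

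**Figure D2:**
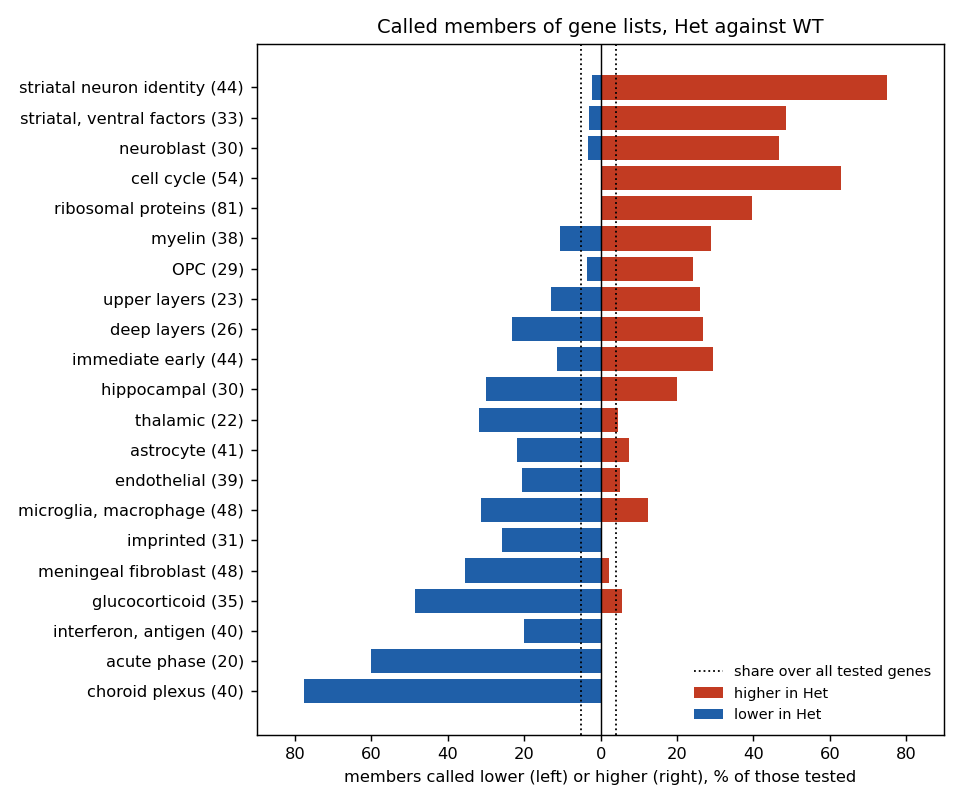
Bars give the share of each list's tested members (number in brackets) called higher (right) or lower (left) in Het, and the dotted lines mark the shares over all tested genes, 3.95% and 5.06%. Striatal, cell cycle and neuroblast lists extend to the right, choroid plexus, acute-phase, glucocorticoid and meningeal lists to the left, and layer, hippocampal and microglial lists to both sides.

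Genes of cortical excitatory neurons were present in both genotypes. Their presence cannot show whether tissue of other regions was included, since other forebrain regions also express them. The vesicular glutamate transporter Slc17a7 stood at 574 in WT and 484 RPKM in Het, and Neurod6, a factor of excitatory forebrain neurons, at 137 and 141 (adjusted p 0.414 and 0.937 from the authors' deposited table). Upper-layer genes held 6 rises and 3 falls of 23, and deep-layer genes 7 rises and 6 falls of 26, with medians of 0.18 and 0.13. Mef2c, an activity-regulated factor linked to psychiatric risk, rose from 22 to 37.3 RPKM, and Lamp5 rose from 9.50 to 20.4. Tbr1, the factor of layer 6 neurons, rose from 11.3 to 16.6 RPKM and Bcl11b, of layer 5 and striatum, from 19.2 to 25.2 (adjusted p 0.0128 for the latter from the authors' deposited table). Crym, a thyroid hormone binding protein, fell from 422 to 296 RPKM, Ldb2 from 17.8 to 11 and Tshz2 from 6.03 to 2.33. Among subplate, layer 6b and claustrum genes 5 of 22 rose and 1 fell, the risers at low levels apart from Synpr, a synaptic vesicle protein, at 64.7 and 90.8 RPKM. The riser with the highest fold, Drd1a, is also in the striatal list. Lists share members: of 639 called genes in the lists 147 are in more than 1, so their counts are not independent.

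Hippocampal genes changed in both directions, 6 higher and 9 lower of 30, and the member with the lowest fold, Dcn, is also in the meningeal list. Pcp4, a calmodulin regulator found in CA2, deep cortex and striatum, rose from 264 to 514 RPKM, and the iodotyrosine deiodinase Iyd rose from 3.81 to 7.94. Dentate granule cell genes Tdo2 and Dsp also rose, from 4.05 to 6.85 and from 4.35 to 6.14 RPKM (adjusted p 0.0128 and 0.00244 from the authors' deposited table). Fibcd1, a CA1 marker, fell 2.32-fold to 17 RPKM, and Mpped1 and Ociad2 fell to 46 and 23.9 from 66 and 35.4. Thalamic genes fell in 7 of 22 members and rose in 1: Tcf7l2, a factor of thalamic excitatory neurons, stood at 7.63 and 1.99 RPKM, and Ntng1, a netrin family membrane protein, at 7.46 and 2.02. Cbln2, a synapse organiser, was the member that rose, from 3.26 to 7.24. Hypothalamic and amygdala genes fell in 7 of 20 and rose in 2, with Hap1 lower (50.4 to 21.7 RPKM) and galanin (Gal) higher (3.98 to 8.13 RPKM, adjusted p 0.0293 from the authors' deposited table).

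Genes of dividing cells and of newly born neurons rose. Of 54 tested genes of the cell cycle and DNA replication 34 rose, with a median log2 fold of 0.56 and a summed level of 579 RPKM in WT and 810 in Het. The ubiquitin-conjugating enzyme of mitotic exit Ube2c rose from 2.49 to 6.73 RPKM, the ribonucleotide reductase subunit Rrm2 from 3.49 to 7.90 and cyclin B1 (Ccnb1) from 1.34 to 3.53. Uhrf1, which couples DNA methylation to replication, rose from 1.08 to 3.11 RPKM, whereas its partner Dnmt1, also made by neurons, stood at 11.3 and 13.6 (adjusted p 0.168 from the authors' deposited table). Neuroblast and olfactory bulb genes rose in 14 of 30 members and fell in 1. They include Nrep, a protein of regenerating neurons, at 202 and 308 RPKM, doublecortin (Dcx) at 23 and 34, and Eomes, the factor of intermediate progenitors, at 1.20 and 2.49. Calb2, a calcium buffer of olfactory bulb interneurons, was the member that fell, from 90.7 to 65.3 RPKM. Among 47 proneural and stem cell factors 12 rose and 6 fell: Sox11 reached 12.9 RPKM from 8.75, Neurod1 40.7 from 29.2, and the Zic factors Zic1 and Zic4 fell from 7.71 to 5.46 and from 1.64 to 0.868 (adjusted p 0.0171 and 0.0176 from the authors' deposited table). A list of neuronal cytoskeleton and energy genes, which shares members with the neuroblast list, held 7 rises of 50, with a median of 0.13. Dcx, named above, had the highest log2 fold of that list. Among its other risers were Marcks (67.1 to 94.8 RPKM), stathmin (Stmn1, 385 to 553 RPKM) and the thymosin Tmsb10 (317 to 440 RPKM). The last 2 and Dcx are also members of the neuroblast list.

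Promoters of several lists were searched for short motifs. Promoters here are RefSeq sequences on GRCm38.p6 from 250 bases before to 50 after the start, matched to 11126 tested genes, and each of 9 motifs was searched on both strands. CCAAT, bound by the factor NF-Y, was in 42.7% of tested promoters, 52.3% of those of genes that rose and 38.5% of those of genes that fell. Of 44 cell cycle genes with a promoter 33 held it, 75.0%. CCAAT was also in 56.25% of promoters of the antigen presentation and interferon list, none of which rose. In ribosomal protein genes, none of which fell, its share was 32.2%. TTTGAA is part of the element through which cell cycle genes are repressed in resting cells. It was in 13.8% of tested promoters, 19.95% of those that rose, 13.9% of those that fell and 36.4% of the cell cycle list. The core of the interferon-stimulated response element, GAAA followed after any 2 letters by GAAA, was in 3.42% of tested promoters, 3.05% of those that rose, 6.204% of those that fell and 34.4% of the antigen presentation and interferon list. It was also in 18.2% of promoters of the immediate early list, which held more rises than falls, and in 11.9% of those of ribosomal protein genes, none of which fell. TATAAA was in 8.74% of tested promoters, 10.6% of those that rose and 13.9% of those that fell, and GGGCGG in 68.4%, 69.0% and 60.8%. CACGTG was in 11.6%, 11.3% and 9.12%, TGACGTCA in 3.51%, 3.76% and 2.74%, and TTTCCCGC in 2.18%, 1.41% and 0.730%, in the same order. The palindromic glucocorticoid response element was found in 2 tested promoters, neither of a called gene. The windows that follow show the first match, in capitals, in promoters of the cell cycle list and of the antigen presentation and interferon list, of which 8 of 40 members fell; on the printed strand CCAAT can read ATTGG.
Top2a, chr11:99024399-99024428, minus strand: tggaccttcctcATTGGtcagattttctgt
Ccnb1, chr13:100786568-100786597, minus strand: gaacccgcggcgCCAATgggaagagagcga
Ifitm2, chr7:140955988-140956017, minus strand: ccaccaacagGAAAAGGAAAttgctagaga
Bst2, chr8:71537583-71537612, minus strand: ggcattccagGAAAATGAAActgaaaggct
B2m, chr2:122147538-122147567, plus strand: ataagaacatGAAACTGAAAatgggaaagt
The Top2a promoter held 6 CCAAT matches and that of Ccnb1 held 2. Ifitm2 and Bst2 fell in Het, whereas B2m, the light chain of class I molecules, stood at 102 and 86.3 RPKM (adjusted p 0.241 from the authors' deposited table), so the letters were found in called and uncalled members alike.

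Ribosomal protein genes stood a little above WT. Of 81 tested, 32 rose and 80 stood above WT, with a median log2 fold of 0.31 and a range from -0.34 to 0.56. Rpl41 stood at 1021 in WT and 1412 RPKM in Het, Rpl39 at 467 and 657 and Rps19 at 226 and 315. Other machines of gene expression had lower medians and fewer calls. Among 77 mitochondrial ribosomal proteins 2 rose (median 0.14), among 82 nuclear-encoded respiratory chain subunits 5 (0.18), among 75 splicing factors and RNA-binding proteins 6 (0.13), and among 61 translation factors 1 (0.10). The shares called higher in the mitochondrial ribosomal and translation factor lists, 2.60% and 1.64%, were under the 3.95% over all tested genes. Among genes with a mean of 100 RPKM or more 76 of 825 tested rose, and the part of level in these list counts was not tested. The spliceosome component Snrpg rose from 99.3 to 154 RPKM, and Hnrnph1, a splicing regulator, from 91.0 to 123. Of 37 proteasome subunits none was called by the authors' test, and 2 had an unadjusted p below 0.05 from the authors' deposited table; their median was 0.12. Paralogues and processed copies of ribosomal genes share sequence with them, so single members are uncertain.

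**Figure D3:**
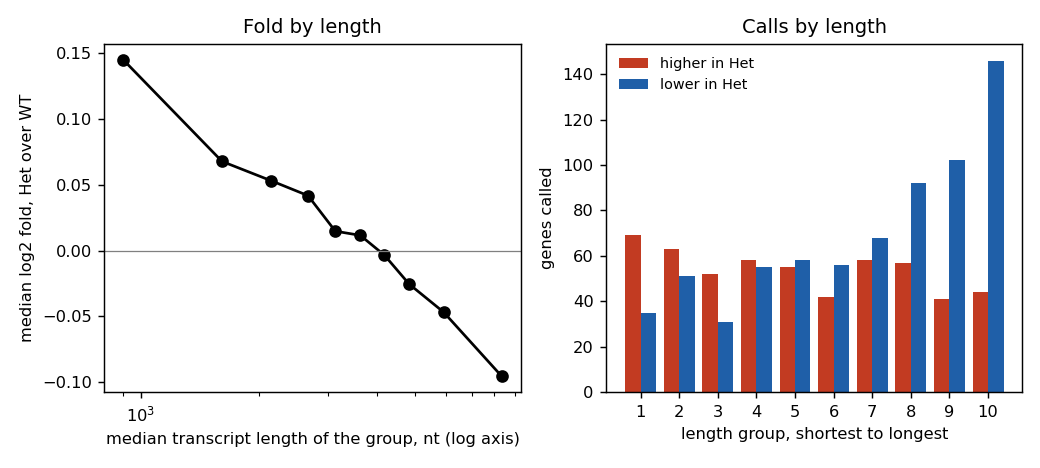
Left, the median log2 fold of measured genes in each of 10 equal groups by transcript length, against the group's median length (nt, log axis); right, the number of genes called higher and lower in each group. The median goes from 0.14 in the shortest group to -0.10 in the longest, and calls shift from 69 higher and 35 lower to 44 higher and 146 lower.

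Transcript length, taken as that of the longest annotated transcript of each gene, moved with these differences. The expressed transcript can be shorter. In the shortest of 10 equal groups of measured genes, with a median length of 902 nt, the median log2 fold was 0.14, and in the longest, with 8349 nt, it was -0.10. The calls were 69 higher and 35 lower in the former and 44 higher and 146 lower in the latter. Ribosomal protein genes had a median length of 1059 nt and respiratory chain genes of 1046, against 3383 nt over all measured genes. Glutamate receptor genes and postsynaptic scaffolds, with median lengths of 5324 and 6017 nt, had median log2 folds of -0.13 and -0.11. The part of length in either result was not tested.

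Choroid plexus genes fell. This epithelium lines parts of the ventricles and makes cerebrospinal fluid. Of 40 tested, 31 were lower, with a median log2 fold of -1.14, and the summed level of the list went from 2502 to 512 RPKM, of which transthyretin (Ttr) made up 2027 and 281. Its transporters and channels fell with it: the chloride channel Clic6 from 5.99 to 1.35 RPKM, the water channel Aqp1 from 7.73 to 1.20, the bicarbonate carrier Slc4a5 from 1.76 to 0.244 and the anti-ageing hormone Klotho (Kl) from 5.06 to 1.25. The tight junction gene Cldn2, of the same epithelium, fell from 4.23 to 0.855 RPKM, and Trpm3, a cation channel abundant there, from 13.9 to 4.31. Slc29a4, a monoamine carrier, stood at 26.1 and 26.8 RPKM (adjusted p 0.936 from the authors' deposited table) and Igfbp2 at 55.4 and 46.6 (adjusted p 0.238 from the authors' deposited table), both expressed outside the choroid plexus. The serotonin receptor Htr2c, abundant in this epithelium and in neurons, fell 2.87-fold, from 19.4 to 6.74 RPKM. In the serotonin receptor family Htr5b, Htr7 and Htr4 fell too and Htr1d rose, at 0.319 and 0.842 RPKM (adjusted p 0.0282 from the authors' deposited table), 4 and 1 of 12. Ciliated ependymal cells line the same ventricles, and 4 of 32 of their genes fell, with a median of -0.32. Rsph4a, a radial spoke protein of cilia, fell from 2.73 to 1.34 RPKM.

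Genes of the meninges and of the extracellular matrix moved in part. Of 48 meningeal and perivascular fibroblast genes 17 fell and 1 rose, with a median of -0.22. Matrix Gla protein (Mgp) fell from 30.5 to 12.9 RPKM, the prostaglandin D synthase Ptgds from 145 to 72.3 and the small proteoglycan Dcn from 31.9 to 5.94. The dicarboxylate carrier Slc13a3 rose from 3.83 to 7.63 RPKM. Among 63 matrix genes 17 fell and 4 rose, with a median of -0.15. Those that rose were Tnc (5.96 to 10.6 RPKM), Ncan (56.8 to 83.1 RPKM), Acan (1.24 to 2.09 RPKM) and Vcan (8.28 to 11.1 RPKM), the last 2 at an adjusted p of 0.00244 and 0.0153 from the authors' deposited table. Bcan, a brain proteoglycan like Ncan, stood at 107 and 116 RPKM and was not called (adjusted p 0.698 from the authors' deposited table). Collagens of stroma and basement membranes, Col8a1 and Col8a2, fell from 3.13 to 0.790 and from 2.62 to 0.656 RPKM, and elastin (Eln) from 16.8 to 9.08. Insulin-like growth factor binding protein 3 (Igfbp3) fell 3.62-fold, from 25.3 to 6.99 RPKM.

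Vascular cell genes did not move as 1 group. Of 39 endothelial and barrier genes 8 fell and 2 rose, with a median of -0.05: von Willebrand factor (Vwf) fell from 4.80 to 1.45 RPKM, the glucose transporter Slc2a1 from 58.0 to 38.4 and Ly6a from 17.3 to 6.11, whereas the VEGF receptor Kdr rose from 4.03 to 5.98. Among 20 pericyte and smooth muscle genes 1 rose, the pericyte marker Rgs5 at 28.6 and 40.5 RPKM. Of 7 erythroid genes tested 5 were not called and 4 stood above WT, and the summed level of the list went from 839 to 872 RPKM. The globin gene Hbb-bt rose 3.01-fold, from 22.4 to 67.5 RPKM, and the haem synthesis enzyme Alas2 from 4.13 to 8.10. Erythroid transcripts are read as a sign of blood in a tissue, and their part in the other results was not tested.

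Glial lists differed. Mature oligodendrocyte and myelin genes rose in 11 of 38 and fell in 4, with a median of 0.30, and 31 of 38 stood above WT. Cnp, a myelin phosphodiesterase, rose from 109 to 158 RPKM and Mog from 15.2 to 21.8 (adjusted p 0.00343 and 0.0114 from the authors' deposited table). The abundant myelin gene Mbp stood at 640 RPKM in WT and 907 in Het and was not called (adjusted p 0.128 from the authors' deposited table). The member with the lowest log2 fold, Ndrg1, a stress-induced gene, fell from 20.2 to 4.46 RPKM. Oligodendrocyte precursor genes rose in 7 of 29 and fell in 1, with Gpr17 (16.8 to 35.1 RPKM) and Sox8 (14.5 to 22 RPKM) in front. Astrocyte genes fell in 9 of 41 and rose in 3, with a median of -0.04. Aqp4, the water channel of astrocyte endfeet, rose from 47.2 to 67.8 RPKM, while angiotensinogen (Agt) fell from 31.9 to 12.8, Serpina3n, a reactive astrocyte gene, from 106 to 53 and the phagocytic receptor Mertk from 10.4 to 5.88.

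**Figure D4:**
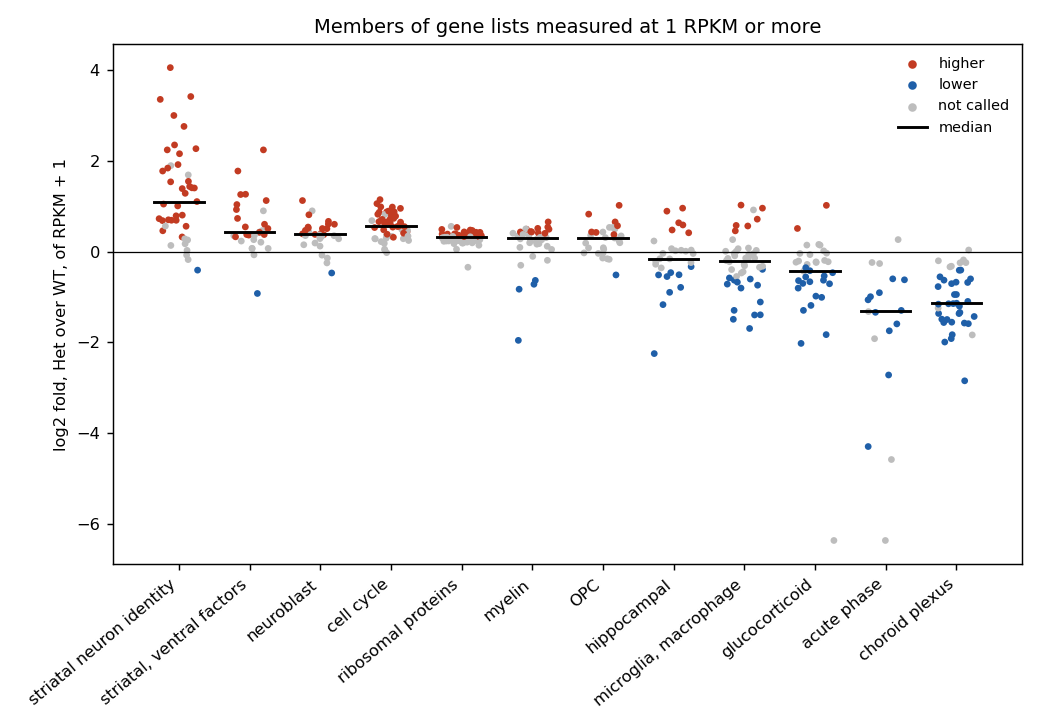
Points are members of 12 gene lists measured at 1 RPKM or more, placed by log2 fold (Het over WT of RPKM + 1); colour gives the call and the black line the median of the list. The medians run from 1.10 for striatal identity genes to -1.31 for acute-phase genes, and the microglial list spreads to both sides.

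Microglial genes split into a rising and a falling set. These resident macrophages of the brain express a homeostatic programme that is turned down during activation. Of 48 tested microglia and macrophage genes 6 rose and 15 fell, with a median of -0.20 and a summed level of 1145 RPKM in WT and 931 in Het. The 6 that rose were P2ry12 (20.7 to 41.1 RPKM), P2ry13 (3.22 to 7.59 RPKM), Tmem119 (9.23 to 15.8 RPKM), Cx3cr1 (13.6 to 20.9 RPKM), Selplg (7.55 to 11.7 RPKM) and Sall1 (3.98 to 5.85 RPKM), all known as homeostatic genes; P2ry13 had an adjusted p of 0.0428 from the authors' deposited table. Those that fell by the largest folds were Lyz2, a lysozyme of macrophages and neutrophils (14 to 3.64 RPKM), Cd14, the lipopolysaccharide co-receptor (5.70 to 1.38), Ly86 (22.9 to 8.09), the cathepsin Ctss (84.8 to 31.7), Fcgr3, an antibody receptor (27.5 to 10.6) and osteopontin, Spp1 (4.31 to 1.46). All 3 chains of complement C1q fell as well, C1qa from 71.0 to 42.2, C1qb from 84.2 to 47.8 and C1qc from 74.7 to 48.0 RPKM; they are named here after their values were seen. Lysosomal genes shared with other cells, Ctsb and Ctsd, stood at 106 and 212 RPKM in WT and 103 and 190 in Het (adjusted p 0.937 and 0.507 from the authors' deposited table).

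**Figure D5:**
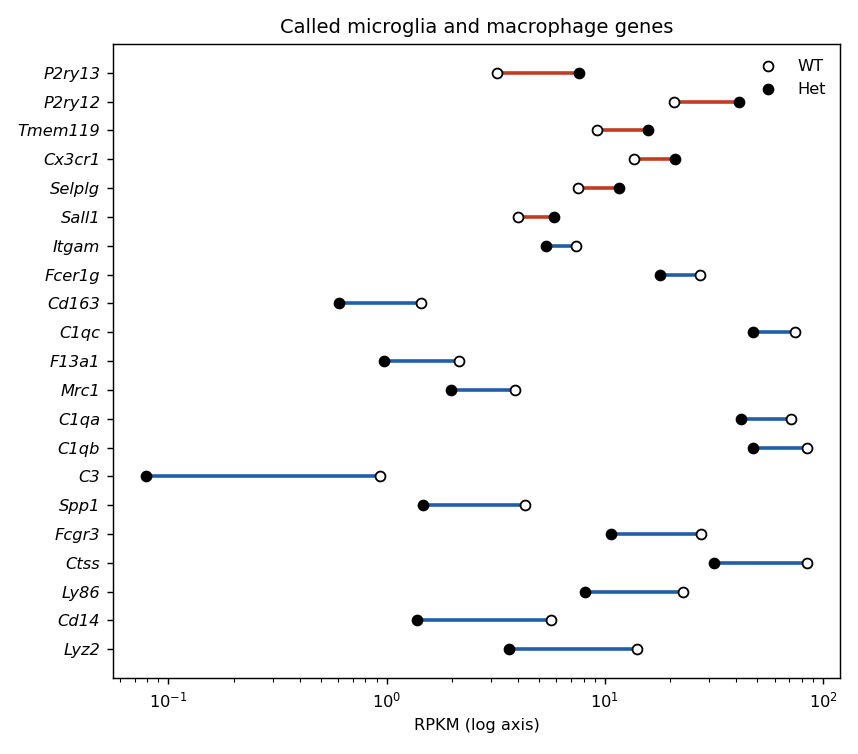
Open circles give WT and filled circles Het RPKM (log axis) for the 21 called microglia and macrophage genes, joined by red lines where Het is higher and blue where it is lower. The 6 homeostatic genes at the top move to the right, and the other 15 to the left.

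Genes of acute inflammation and of antigen presentation were lower. Of 20 tested acute-phase and neutrophil-linked genes 12 fell, with a median log2 fold of -1.31 and a summed level of 313 RPKM in WT and 72.6 in Het. The calgranulin S100a9 fell from 28.9 to 0.527 RPKM (adjusted p 0.00841 from the authors' deposited table). Its partner S100a8 stood at 32.7 and 0.409 RPKM and the lipocalin Lcn2 at 91.5 and 0.124, and neither was called (adjusted p 0.194 and 0.161 from the authors' deposited table). Both uncalled genes are part of the summed level. The neutrophil granule gene Ngp, at 2.35 RPKM in WT, and the resistin-like gene Retnlg, at 1.53, were listed at 0 in Het. Socs3, the feedback inhibitor of cytokine receptors, fell from 5.09 to 1.02 RPKM. In the antigen presentation and interferon list 8 of 40 fell: H2-K1, a class I heavy chain, from 20.4 to 9.68, Ifitm1 from 15.4 to 3.42, Ifitm3 from 30.6 to 12.3 and Bst2 from 10.1 to 5.38 RPKM (adjusted p 0.0188 for the latter from the authors' deposited table). Stat3, the factor that drives many acute-phase genes, stood at 14.1 and 14.2 RPKM (adjusted p 0.989 from the authors' deposited table). Among 28 chemokine, cytokine and adhesion genes 7 fell and 1 rose, with Icam1, the leukocyte adhesion receptor, at 7.91 and 2.28 RPKM and Nfkbia, the inhibitor of NF-kB, at 24.6 and 16.7.

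Glucocorticoid-responsive genes and metallothioneins fell in 17 of 35 members and rose in 2, with a median of -0.42. Fam107a, an actin-binding stress gene, fell from 145 to 40.2 RPKM, the sulfotransferase Sult1a1 from 14.5 to 2.81, the factor Zbtb16 from 11.2 to 4.38 and Hif3a from 3.74 to 1.36. The metallothioneins Mt1 and Mt2 fell from 431 to 277 and from 321 to 184 RPKM, whereas the neuronal Mt3 stood at 613 and 685 (adjusted p 0.481 from the authors' deposited table). The members that rose were Gpr17 and the phosphatase Dusp1 (13.9 to 20.3 RPKM, adjusted p 0.00244 from the authors' deposited table), which neuronal activity also induces. Immediate early and activity-regulated genes rose in 13 of 44 and fell in 5. Egr1 rose from 22.4 to 34.9 RPKM, Npas4 from 3.39 to 6.31 and Arc from 7.48 to 11.9, while Per1 fell from 20.3 to 14.9 (adjusted p 0.00244 from the authors' deposited table), Fosl2 from 8.79 to 5.16 and Ptgs2 from 6.75 to 3.18. Among 21 core clock genes 4 fell, Per1, Bhlhe40 (21.4 to 15.4 RPKM), Ciart and Rora. Hypoxia and glycolysis genes held 5 falls of 34 and heat shock genes 3 rises of 43. The list of the unfolded protein and integrated stress responses held 1 fall of 34 (2.94%, under the 5.06% over all tested genes), that of Cebpb, at 5.86 and 2.67 RPKM, and its median was 0.02.

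The lists of glutamate receptors, scaffolds and release genes held more falls than rises. Of 34 AMPA, NMDA and kainate receptor genes and auxiliaries 6 fell and 2 rose, with a median log2 fold of -0.13. Grin2b, Grin3a and Grik1 fell to 5.596, 8.47 and 5.06 RPKM from 9.60, 12.3 and 8.68. The auxiliary subunits Neto1 and Neto2, which tune kainate receptors, were the members that rose, from 26.1 to 36.6 and from 17.7 to 26.9 RPKM (adjusted p 0.0176 for Neto1 from the authors' deposited table). Of 39 postsynaptic scaffolds 6 fell, with a median of -0.11: Shank1, a scaffold of the spine, fell from 37.4 to 26.6 RPKM. Among 53 presynaptic release genes 8 fell and 4 rose: Sv2b, a vesicle glycoprotein, fell from 130 to 86.7 RPKM and Vamp1 from 31.1 to 21.8, and Syt6 rose from 2.70 to 8.98. GABA and glycine receptor subunits had 3 falls and 2 rises of 17. Gabra2 fell from 61.4 to 36.4 RPKM, and Gabrd, an extrasynaptic subunit, rose from 6.54 to 14.5. None of the 7 metabotropic glutamate receptors tested was called by the authors' test, and 0 had an unadjusted p below 0.05 from the authors' deposited table; Grm5 stood at 43.3 and 38.9 RPKM (adjusted p 0.536 from the authors' deposited table).

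Ion channels changed in both directions. Of 76 potassium channel genes 9 fell and 5 rose: Kcnh4, a striatal channel, rose from 0.459 to 1.82 RPKM and Kcnj2, an inward rectifier, from 1.17 to 2.17, and Kcnc2, of fast-spiking interneurons, fell from 15.3 to 10.8. Among 55 sodium, calcium, HCN, chloride and related channels 10 fell and 4 rose. The sodium channel auxiliary Scn4b rose 8.83-fold to 24.8 RPKM, and the interneuron sodium channel Scn1a fell from 12.7 to 9.07. Acetylcholine, opioid, cannabinoid and adenosine receptors held 2 rises and 2 falls of 21, the falls being Chrna7, a nicotinic receptor linked to psychiatric risk, at 15.2 and 9.92, and Chrm5 at 4.03 and 1.81 RPKM.

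Guidance, adhesion and growth factor families were mixed. Semaphorins, plexins and neuropilins had 6 rises and 3 falls of 31, with Sema3a higher (0.810 to 2.32 RPKM), Sema3c higher (27.8 to 46.7 RPKM) and Plxnc1 lower (11.1 to 6.97 RPKM). Ephrins and their receptors had 5 rises, all of receptors, and 2 falls of 21; Ephb1 rose from 12 to 18.5 RPKM. Slit, Robo, netrin, reelin and teneurin genes fell in 11 of 38 and rose in 4: Slit1 fell from 28.8 to 17.1 and the teneurin Tenm4 from 7.50 to 4.40 RPKM. The midline receptor Robo3 rose from 4.85 to 7.28 RPKM. Among 44 Wnt pathway genes 6 fell and 3 rose, and among 50 BMP and TGF-beta genes 7 fell and 4 rose; the inhibitor Chrdl1 rose from 1.45 to 3.02 and the receptor gene Tgfbr1 from 7.95 to 11.6 RPKM, and Tgfbi, a matrix target, fell from 3.48 to 1.03. Of 44 neurotrophins, neuregulins and receptor kinases 8 fell and 4 rose: Ptn, a heparin-binding growth factor, rose from 128 to 194 RPKM and Tgfa from 16 to 29.6, and the stem cell factor receptor Kit fell from 20.3 to 11.6. In the retinoid and thyroid hormone pathway 6 rose and 6 fell of 31, with Crabp1, a retinoic acid binding protein, at 4.35 and 14.1, Cyp26b1, which degrades retinoic acid, at 5.01 and 13.1, and Dio3, which inactivates thyroid hormone, at 1.26 and 0.257 RPKM (adjusted p 0.00684 for Dio3 from the authors' deposited table).

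The remaining families differed in their share of calls. None of 29 Notch pathway genes was called by the authors' test, with 5 at an unadjusted p below 0.05 from the authors' deposited table, and their median log2 fold was 0.01. None of 39 mitochondrial carriers was called either, with 3 at an unadjusted p below 0.05 from the authors' deposited table. Cholesterol genes rose in 7 of 39, 17.9% against 3.95% over all tested genes. Among them were the synthesis enzymes Mvd (18.8 to 26.5 RPKM), Idi1 (31.3 to 42.2 RPKM) and Fdps (65.3 to 83.0 RPKM, adjusted p 0.0362 from the authors' deposited table). Imprinted genes fell in 8 of 31, 25.8% against 5.06% over all tested genes, with a median of -0.26 and 2 of the measured members above WT. Plagl1, a zinc finger factor of an imprinted network, fell from 9.61 to 4.15 RPKM, Peg3 from 25.4 to 15.7 and Magel2 from 1.56 to 0.693. Among 5 sex-linked genes none was called by the authors' test, 1 having an unadjusted p below 0.05 from the authors' deposited table: Xist stood at 36.7 and 34.3 RPKM, Ddx3y at 7.89 and 8.87 and Eif2s3y at 14.2 and 19.5, so pools of both genotypes held RNA with X-inactivation and Y-linked transcripts.

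Some large differences lay outside the lists. Cpne7, a calcium-dependent membrane-binding copine, fell 4.84-fold, from 116 to 24 RPKM, and its relative Cpne6 from 217 to 151. The ferroxidase ceruloplasmin (Cp) fell from 9.15 to 2.46 RPKM and the secretoglobin Scgb3a1 from 5.62 to 0.570 (adjusted p 0.0153 for the latter from the authors' deposited table). Dach1, a developmental transcription factor, rose from 1.601 to 5.83 RPKM and Atp6ap1l, a relative of a proton pump subunit, from 0.915 to 6.57. Ybx1, an RNA-binding protein with an 8mer in its 3′ UTR, rose from 161 to 244 RPKM. The predicted genes Gm3002 and Gm10406 rose from 2.78 to 10.2 and from 1.87 to 7.95 RPKM; they belong to a family of near-identical copies between which reads may be split.

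The KO cortex gives a second level for the same genes, from the authors' deposited table of KO against Het, in which 263 of 14060 genes were called in either direction (1.87%). Both comparisons share the Het libraries, so the values are set side by side and not combined. The authors normalised the tables separately: the Het RPKM of the second is a median of 1.007 times that of the first over genes of at least 1 RPKM, and Het levels printed here are those of the first. Pde10a, at 12.7 RPKM in WT and 35.2 in Het, stood at 27.4 in KO (adjusted p 0.326 against Het from the authors' deposited table). Ppp1r1b stood at 179 RPKM in KO (adjusted p 0.994 against Het from the authors' deposited table). For other genes the KO level lay nearer to WT than to Het: Dcn, at 31.9 in WT and 5.94 in Het, stood at 28.7 RPKM in KO, Ndrg1 at 14.9, Hbb-bt at 29.6 and Fibcd1 at 28.9, each at an adjusted p of 0.00517 against Het from the authors' deposited table. Mbp stood at 907 RPKM in Het and 462 in KO (adjusted p 0.00517 from the authors' deposited table), below the 640 of WT. Ttr fell further, from 281 in Het to 83.8 in KO (adjusted p 0.00517 from the authors' deposited table).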

How the data were processed

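RNA of mouse cortex was sequenced with 4 WT and 4 Het libraries, grouped by genotype in their titles. Per the submitters' processing notes, CASAVA 1.4, TopHat2 2.0.13, Cuffdiff 2.2.1 and build mm9 were used; the step each tool served and the gene annotation were not given in the sources used here. The authors deposited, per the file headers, 1 RPKM value per genotype. The deposited p-value and q-value of each gene are the authors' own; genes with p below 1 were read as tested, and the q-values match Benjamini-Hochberg values computed over them to within 7.1e-05. Depth is unknown, since pooled RPKM shows no whole reads. The planned test for 1 value per genotype was applied: no test was run here, and calls are the authors' q below 0.05.

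Log2 folds (pseudocount 1), counts per list over 90 gene lists and medians over genes of at least 1 RPKM were computed in Python 3.11.15 with pandas 2.3.3, numpy 2.4.6 and matplotlib 3.10.9, and tested on simulated data. Members, lists and the rule for named genes were chosen with earlier results of these data known. Named genes are miR-137 targets, Pde10a, neighbours of Mir137 (5 per side), the 25 largest rises and falls, the 10 most abundant calls per direction, called genes with miR-137 sites and, per list, up to 6 calls per direction and 3 abundant uncalled members. Rows naming several genes (100) or holding dates or repeated names (27) are counted and not named. No column lacked a genotype (0). 3′ UTRs and lengths (99.3% of measured genes) came from GENCODE M21 by gene name. Alternatives were pseudocounts, level minima, thresholds, recentring and shortest UTRs.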

Additional observations from a re-analysis of the deposited data

How the results depend on the processing

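At an adjusted p below 0.01, 317 genes were higher and 462 lower, and with an absolute log2 fold of at least 0.5 the counts were 277 and 393; both settings are stricter by construction. Of 220 named genes called, 20 lost the call under the first and 42 under the second, and 29 lay under a minimum of 5 RPKM. Pseudocounts, recentring and dropping the minimum leave the authors' adjusted p as it is, so they do not test these calls, and adjusting over the 3 tables together ended 0 of these calls. The other alternatives moved neither total by over 1.5 times, with 402 and 478 at a minimum of 5 RPKM. Counts per list moved more: of 180, 33 changed by over 1.5 times at a minimum of 5 RPKM, 55 at an adjusted p below 0.01 and 84 at an absolute log2 fold of 0.5. Pseudocounts and level minima moved 8 to 10 list medians by 0.1 or more. Without a minimum level the median log2 fold of 2 small lists changed sign, to -0.0075 for erythroid genes and -0.0015 for HOX and other homeobox genes, and no other of the 45 list medians of at least 0.1 in size changed sign under any setting run. Of the 45 smaller medians 11 changed sign. Medians of the miR-137 site classes stayed between -0.04 and 0.05 over all settings, shortest UTRs included. No paired analysis was possible because the authors' table gives 1 pooled value per genotype, and leaving out 1 library at a time was not possible for the same reason. Depth and the spread between libraries are unknown, so a difference that was not called may be undetected and is not shown to be absent. What kept the large differences of S100a8 and Lcn2 from being called was not tested. Of 9353 genes with a mean under 0.5 RPKM 19 were tested, and of 1099 from 0.5 to 1 RPKM 814 were.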

Other observations

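Transporter families that serve barriers and glia were not described above. Of 58 amino acid, glucose and monocarboxylate carriers 11 fell and 3 rose. Slc38a3, a glutamine carrier of astrocytes, rose from 39.2 to 57.3 RPKM, and Slc7a3, a cationic amino acid carrier, fell from 5.95 to 2.99. Of 57 ion, bicarbonate and metal carriers 9 fell and 1 rose: the iron exporter Slc40a1 rose from 3.72 to 6.22 RPKM, and the neuronal bicarbonate carrier Slc4a10 fell from 46.6 to 32.5. Among 59 organic anion and drug transporters 8 fell and 4 rose, with the sulfate carrier Slc13a4 at 5.29 and 1.44 RPKM and Slco1a4, a carrier of the blood-brain barrier, at 10.3 and 5.47. Of 31 serpins and protease inhibitors 8 fell and 2 rose. The broad protease inhibitor A2m fell from 8.56 to 1.49 RPKM, and the neurotrophic serpin Serpinf1 rose from 18.7 to 27.1 (adjusted p 0.00434 from the authors' deposited table).

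Many rows of short RNAs with a level in 1 genotype were listed at 0 in the other. Of 1071 rows named for microRNA precursors 169 had a value above 0, 109 reached 20 RPKM in either genotype, and 64 of those were listed at 0 in the other, 33 in Het and 31 in WT. Of 114 rows for small nucleolar and Cajal body RNAs 50 reached 20 RPKM, 18 of them being at 0 in 1 genotype. Of these rows 37 and 28 were tested, and the authors' test called none, with 0 at an unadjusted p below 0.05 from the authors' deposited table.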
